A study of Mus musculus with 6 samples.

Results

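The genes described here encode the inward rectifier potassium channels of the heart and their receptor subunit: Kcnj2, Kcnj12, Kcnj3, Kcnj5, Kcnj8, Kcnj11 and Abcc9. They were chosen by name, from the channel classes that textbooks assign to the heart, with earlier results of these data known. All 7 were among the 13003 genes with deposited values. The tissue was ventricular myocardium of mice aged 14 to 19 months, from 3 WT mice (replicates 1, 3 and 4) and 3 Dst-b mutant mice (replicates 1, 2 and 3), with 1 poly-A RNA-seq library per mouse. The mutants were homozygous for E2610Ter, a nonsense mutation in an exon that only the Dst-b isoform of dystonin uses. It was introduced by CRISPR-Cas9 in C57BL/6J mice, and homozygotes came from crosses of heterozygotes. The study analyzed 3 independent lines with this allele, and the line of each sequenced mouse is not given in the sources used here. The allele is present in every cell of the animal and is not restricted to cardiomyocytes. The study used both sexes, but the sex of the mouse behind each library is not given in the sources used here. From its RNA-seq results the study left out Xist, Tsix and Bmp10, whose differences it ascribed to extreme outliers in only 1 individual. The libraries held 40693854 to 57580110 tags assigned to genes, and the members had between 617 and 20285 tags each per library. Counts summed over Dst, which cannot separate the isoforms and so do not test the allele, were 423 to 473 CPM (tag counts relative to library size, with TMM scaling) in WT and 414 to 457 CPM in mutant hearts. Mutant replicate 1 weighed most on the number of differences found: 601 genes were called between genotypes with all libraries and 163 without it. WT replicate 3 stood apart for markers of atrial myocytes, whose values are given with the Kir3 genes. Kcnj8 kept its call without it (log2 fold change -0.41, adjusted p 0.0402 in edgeR), whereas Abcc9 did not (-0.37, adjusted p 0.103 in edgeR).

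Inward rectifiers pass potassium more readily into the cell than out of it and so hold the resting potential near the potassium equilibrium, while letting the action potential keep its plateau. The Kir2 channels, Kir2.1 from Kcnj2 and Kir2.2 from Kcnj12, carry the background current IK1 that sets the resting potential of ventricular myocytes and completes repolarization. The Kir3 channels, Kir3.1 from Kcnj3 and Kir3.4 from Kcnj5, join in one tetramer that G-protein beta-gamma subunits open after vagal stimulation, and this acetylcholine-activated current is best known from atria and nodes. The Kir6 channels need a sulfonylurea receptor to reach the membrane: Kir6.2 from Kcnj11 with SUR2 from Abcc9 forms the ATP-sensitive (K-ATP) channel of ventricular myocytes, which opens when ATP falls, and Kir6.1 from Kcnj8 with SUR2 forms that of vascular smooth muscle and pericytes. The study also recorded electrocardiograms in WT mice and in mice homozygous for this allele. Whether the sequenced mice were among those recorded is not given in the sources used here.

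Of the 7 genes, Kcnj8 and Abcc9 were lower in Dst-b mutant hearts and the other 5 were not called. Calls required p below 0.01 together with adjusted p below 0.1 in edgeR's quasi-likelihood test. In the background of 12955 tested genes, 4.64% were called in either direction, 2.8% higher and 1.84% lower in mutants. The estimated change was negative for 6 of the 7 genes and positive for Kcnj2, with a median log2 fold change of -0.20 for the members, against a median close to 0 over all tested genes. WT and mutant values did not overlap for 4 of the 7 (Kcnj2, Kcnj12, Kcnj8 and Abcc9), whereas 21.9% of all genes tested showed no overlap, 11.4% with mutant values above and 10.5% with mutant values below. Kcnj8 and Abcc9 are also on term lists that the study drew from these same libraries, so their direction here is not a second, separate observation.

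**Figure D1:**
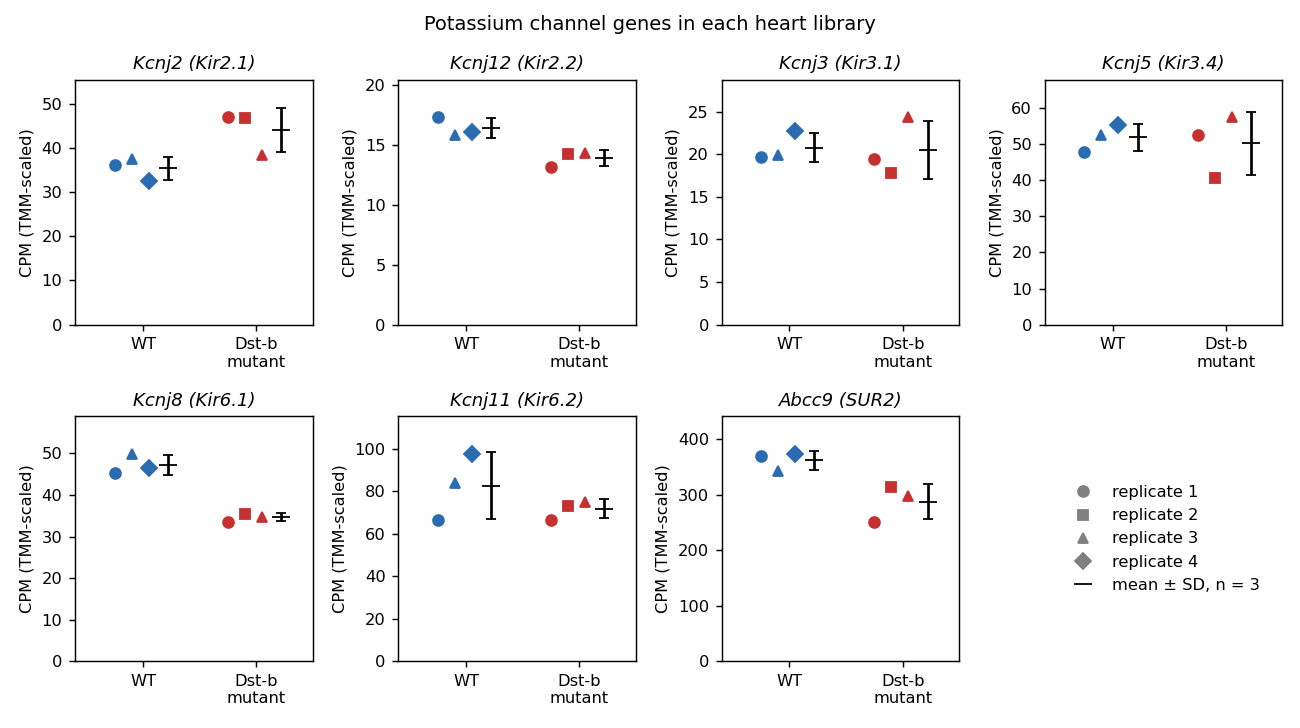
CPM after TMM scaling (y axis, from 0) of each of the 7 genes in the 3 WT (blue) and 3 Dst-b mutant (red) libraries, with the replicate number given by the symbol and the mean ± SD in black. Every mutant point lies below every WT point for Kcnj8, Abcc9 and Kcnj12 and above them for Kcnj2, and the groups overlap for Kcnj3, Kcnj5 and Kcnj11.

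Levels can be compared between genes only per transcript length, for which the deposited RPKM (reads scaled by exon length and library total) were used. The receptor gene Abcc9 stood highest in WT hearts, at 44.1 ± 1.96 RPKM (SD, n = 3), above 88.7% of all genes listed. The pore genes of the K-ATP channels came next, Kcnj11 at 25.3 ± 4.79 and Kcnj8 at 21.5 ± 1.14 RPKM. Their WT ranges overlapped, so the order of these neighbours does not go beyond their spread. The Kir3 genes followed, Kcnj5 at 11.5 ± 0.833 and Kcnj3 at 10.04 ± 0.816 RPKM, with ranges that overlapped although Kcnj5 was the higher of the pair in each library. The Kir2 genes were the lowest, Kcnj2 at 6.46 ± 0.481 and Kcnj12 at 3.33 ± 0.158 RPKM. This order was the same in mutant hearts, where Kcnj11 (22.1 ± 1.11 RPKM) and Kcnj8 (15.9 ± 0.539 RPKM) no longer overlapped, and where the lowest Kcnj3 value (8.79) and the highest Kcnj2 value (8.77) were next to each other. RPKM rest on the exon length that the authors' annotation gives each gene, from 2054 bases for Kcnj3 to 8156 bases for Abcc9.

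The Kir2 genes, which share the role of carrying IK1, had estimates of opposite sign. Kcnj2 (chr11:111066164-111076825, GRCm38), the main source of this current in the mouse ventricle and the gene mutated in Andersen-Tawil syndrome, was measured at 36.1, 37.5 and 32.5 CPM in WT replicates 1, 3 and 4 and at 47.0, 46.8 and 38.4 CPM in mutant replicates 1, 2 and 3. The means were 35.4 ± 2.59 and 44.0 ± 4.91 CPM (SD, n = 3 each), and all mutant values were above all WT values, with mutant replicate 3 close to WT replicate 3. The log2 fold change was 0.32 (SE 0.096, 95% interval 0.10 to 0.53) and did not pass the threshold, with an adjusted p of 0.131 in edgeR's quasi-likelihood test. Without mutant replicate 3 the log2 fold change was 0.41 and the adjusted p in the same edgeR test was 0.0621, which passes.

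Kcnj12 (chr11:61022564-61073269) encodes Kir2.2, which can assemble with Kir2.1 in a mixed channel. It was measured at 17.3, 15.8 and 16.1 CPM in WT and at 13.2, 14.2 and 14.3 CPM in mutant hearts, in the same order of replicates. All 3 mutant values were below the 3 WT values, by a narrow margin. The log2 fold change was -0.24 (SE 0.095, 95% interval -0.45 to -0.03), with an adjusted p of 0.242 in edgeR's quasi-likelihood test, and no alternative called it.

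Within a library, the RPKM of Kcnj2 was 1.87, 2.13 and 1.82 times that of Kcnj12 in WT and 3.20, 2.96 and 2.40 times in mutant hearts. The groups did not overlap, and the mean log2 ratio was 0.55 higher in mutants, in an exact permutation test with p = 0.1, the smallest that 3 against 3 libraries allow, and 0.5 after adjustment over the 5 pairs compared. A single ratio cannot reach a p under 0.05 in this design, whatever its size.

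**Figure D2:**
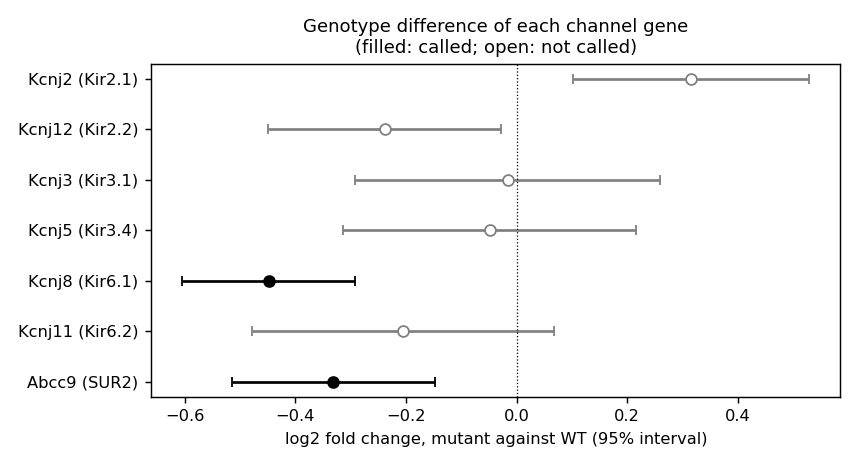
Log2 fold change, mutant against WT, of each of the 7 genes with its 95% interval from edgeR (x axis), with called genes filled and the others open. The intervals of Kcnj2, Kcnj12, Kcnj8 and Abcc9 leave out 0, and those of Kcnj3, Kcnj5 and Kcnj11 include it.

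The Kir3 genes showed no called difference. Kcnj3 (chr2:55411798-55598145), whose product Kir3.1 needs a partner to reach the cell surface, was at 19.7, 19.9 and 22.7 CPM in WT and at 19.5, 17.8 and 24.4 CPM in mutant hearts, with the groups overlapping throughout. Its log2 fold change was -0.02 with a 95% interval of -0.29 to 0.26. Kcnj5 (chr9:32314706-32344380), which encodes the partner Kir3.4, was at 47.8, 52.6 and 55.2 CPM in WT and at 52.6, 40.5 and 57.4 CPM in mutants, with a log2 fold change of -0.05 and a 95% interval of -0.31 to 0.22. Mutant replicate 2 was the lowest and mutant replicate 3 the highest library for both genes, and the order of the mice within each genotype was the same for both. The ratio of Kcnj3 to Kcnj5 in RPKM accordingly stayed within 0.827 to 0.901 in WT and 0.812 to 0.961 in mutant hearts, with an exact permutation p of 0.6 before and after adjustment.

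Because Kir3 transcripts are richer in atria, the markers of atrial myocytes were read in the same libraries. Atrial myosin light chain Myl7 was at 48.7, 144 and 58.1 CPM in WT replicates 1, 3 and 4 and at 13.9, 41.7 and 88.6 CPM in mutant replicates 1, 2 and 3. Myl4, another atrial myosin light chain, was at 241 CPM in WT replicate 3 against 56.8 and 62.8 CPM in the other WT libraries, Sln at 35.3 against 6.30 and 9.25 CPM, and Mybphl at 18.5 against 4.48 and 3.54 CPM. Bmp10 was at 6.11 CPM in WT replicate 3 and at most 0.149 CPM in any other library. WT replicate 3 was thus the highest library for these 5 markers. Mutant replicate 3, the library highest for Kcnj3 and Kcnj5, was the highest of the mutants for all of them but Bmp10. Among the WT libraries, replicate 4 and not replicate 3 was highest for Kcnj3 (22.7 against 19.9 CPM) and Kcnj5 (55.2 against 52.6 CPM). Mutant replicate 1, the lowest library for Myl7, was above mutant replicate 2 for both Kcnj3 and Kcnj5. Of the 6 atrial markers 5 were tested and none was called. Without WT replicate 3 the log2 fold change was -0.05 for Kcnj3 and -0.04 for Kcnj5. The part of atrial tissue in the spread of Kcnj3 and Kcnj5 was not tested.

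The receptors and G proteins that open Kir3 channels were put in a list of 24 genes together with genes of the RGS family. Of these, 23 were tested, 3 were higher and 2 lower, where 4.64% of all tested genes were called. Rgs2, a brake on Gq signalling, was at 43.6, 51.4 and 32.5 CPM in WT and 74.3, 79.9 and 80.4 CPM in mutants, a log2 fold change of 0.88 with an adjusted p of 0.0112 in edgeR. Rgs6, which speeds the closing of the acetylcholine-activated current, rose by 0.60 on the log2 scale, with an adjusted p of 0.0121 in edgeR. Both kept their call in each of the 6 fits that left out 1 library. Gnao1 (0.52), Gng5 (-0.21) and Gng11 (-0.31), which encode G-protein subunits, were called as well, but leaving out WT replicate 1, 3 or 4 or mutant replicate 1 or 3 ended each of these calls, as did leaving out mutant replicate 2 for Gng5, with highest adjusted p of 0.305 to 0.309 in edgeR. The list's median log2 fold change was close to 0.

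Kcnj8 gave the clearest difference among the channel genes. Kir6.1, its product, is the pore of the K-ATP channel in vessel walls, and gain-of-function variants of KCNJ8 and ABCC9 are known causes of Cantu syndrome in people. Kcnj8 was at 45.2, 49.9 and 46.5 CPM in WT replicates 1, 3 and 4 and at 33.6, 35.5 and 34.7 CPM in mutant replicates 1, 2 and 3. The 3 mutant values lay within 2 CPM of each other and well below the lowest WT value. The means were 47.2 ± 2.43 and 34.6 ± 0.972 CPM (SD, n = 3 each), a fold of 0.733 and a log2 fold change of -0.45 (SE 0.070, 95% interval -0.60 to -0.29). The adjusted p in edgeR's quasi-likelihood test was 0.0118, the 88th smallest p of 12955, and all 14 alternatives kept the call.

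Abcc9 encodes SUR2, the regulatory receptor that senses ADP and binds channel-opening drugs, and its splice forms SUR2A and SUR2B share the row of counts. It was at 369, 343 and 373 CPM in WT and at 251, 313 and 298 CPM in mutant hearts. All mutant values were below all WT values, with mutant replicate 1 the lowest by a wide gap. The means were 362 ± 16.7 and 288 ± 32.1 CPM (SD, n = 3 each), a fold of 0.795 and a log2 fold change of -0.33 (SE 0.083, 95% interval -0.52 to -0.15), with an adjusted p of 0.0729 in edgeR's quasi-likelihood test. This call was less firm than that of Kcnj8. It was kept by 8 of 14 alternatives, and among the fits that left out 1 library it was kept only without mutant replicate 2. Without WT replicate 1, 3 or 4 the adjusted p in edgeR was 0.177, 0.103 and 0.162, and without mutant replicate 1 or 3 it was 0.220 and 0.117. A long non-coding RNA gene, 5330439B14Rik, lies inside the span of Abcc9, and as strand use in the counting is not stated their reads may not be fully separated. It was at 8.19, 7.76 and 10.3 CPM in WT and 5.48, 7.63 and 7.27 CPM in mutants, a small share of the Abcc9 count.

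Kcnj11 (chr7:46097123-46100952) encodes Kir6.2, the pore of the K-ATP channel in ventricular myocytes. It was at 66.4, 84.1 and 97.7 CPM in WT and at 66.7, 73.4 and 75.2 CPM in mutant hearts. WT replicate 1 was as low as mutant replicate 1, and the WT values spread wider than the distance between the group means of 82.7 ± 15.7 and 71.8 ± 4.47 CPM (SD, n = 3 each). The log2 fold change of -0.20 moved with single WT libraries, to -0.34 without WT replicate 1 and -0.07 without WT replicate 4. It had a 95% interval of -0.48 to 0.07 and was not called, with an adjusted p of 0.443 in edgeR's quasi-likelihood test, and no alternative called it. The interval includes the log2 fold changes of both Kcnj8 and Abcc9.

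The difference between Kcnj8 and Kcnj11 was also read directly, as the ratio of their RPKM within each library. Kcnj8 stood at 1.01, 0.882 and 0.708 times Kcnj11 in WT and at 0.749, 0.720 and 0.685 times in mutants, overlapping groups with an exact permutation p of 0.3 and 0.6 after adjustment. The ratio of Kcnj8 to Abcc9 was 0.456, 0.543 and 0.465 in WT and 0.498, 0.423 and 0.434 in mutants (exact permutation p = 0.4, adjusted 0.6). The ratio of Kcnj11 to Abcc9 was 0.451, 0.616 and 0.656 in WT and 0.666, 0.588 and 0.633 in mutants (exact permutation p = 0.6, adjusted 0.6). So although Kcnj8 and Abcc9 were called and Kcnj11 was not, these ratios leave undecided whether the pore genes and the receptor gene responded differently from each other. With 3 against 3 libraries the smallest p that these tests allow is 0.1, so they could not have shown a difference at a p under 0.05.

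**Figure D3:**
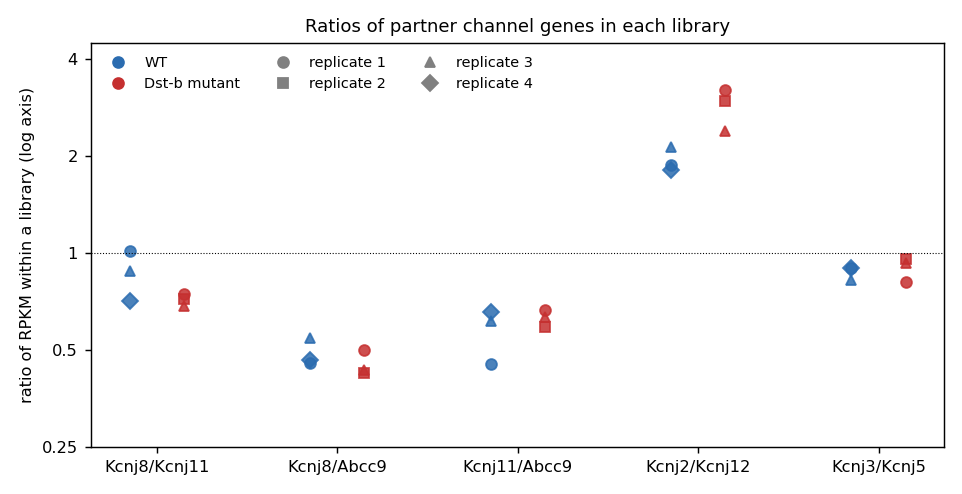
Ratio of the RPKM of paired channel genes within each library (y axis, log scale) for WT (blue) and Dst-b mutant (red), with the replicate number given by the symbol. The Kcnj2 to Kcnj12 ratio is at least 2.40 in the mutant libraries and at most 2.13 in the WT libraries, and the groups overlap for the other 4 pairs.

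Kcnj8 (chr6:142564837-142571614) and Abcc9 (chr6:142587862-142702766) are neighbours on the same strand of chromosome 6, with 16.2 kb between them and no other listed gene in that gap. The next listed genes on either side were not called, Ldhb beyond Kcnj8 with a log2 fold change of -0.16 and Cmas beyond Abcc9 with 0.07. Kcnj11 likewise lies 3.57 kb from Abcc8, the gene of the receptor SUR1, which was at 45.3, 41.2 and 52.4 CPM in WT and 44.2, 58.8 and 44.6 CPM in mutants and was not called. As the called members are the neighbouring pair, the 250 bases upstream of a RefSeq start (GRCm38.p6, minus strand, written 5′ to 3′) are shown for both. They are chr6:142571615-142571864 for Kcnj8 and chr6:142702275-142702524 for Abcc9, the latter from a start inside the gene's full span. Capitals mark matches, on either strand, to 6 motifs: the TATA box TATAAA, the CCAAT box, the GC box GGGCGG, the MCAT element CATTCC of TEAD factors, the RBPJ core TGGGAA and the GATA core GATAAG.

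Kcnj8: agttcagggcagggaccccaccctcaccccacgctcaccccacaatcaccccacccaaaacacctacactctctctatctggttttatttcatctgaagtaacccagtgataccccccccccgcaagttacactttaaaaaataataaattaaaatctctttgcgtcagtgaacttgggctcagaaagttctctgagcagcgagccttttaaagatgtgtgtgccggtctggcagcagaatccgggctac

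Abcc9: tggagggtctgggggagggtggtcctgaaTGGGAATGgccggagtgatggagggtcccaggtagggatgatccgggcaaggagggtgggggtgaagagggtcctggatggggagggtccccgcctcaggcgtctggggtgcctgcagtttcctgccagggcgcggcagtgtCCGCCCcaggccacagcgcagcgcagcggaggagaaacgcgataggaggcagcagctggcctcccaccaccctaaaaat

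The Kcnj8 stretch has no match to any of the 6 motifs and a GC content of 49.2%, within the middle range of all promoters (quartiles 45.2% and 61.2%). The Abcc9 stretch is richer in GC, at 66.8%. It holds TGGGAA, the core that RBPJ binds in Notch signalling, which shares bases with an antisense CATTCC, the MCAT element of TEAD factors, and further on an antisense GGGCGG, a GC box. Such matches are common: TGGGAA was found in 21.6%, CATTCC in 12.6% and GGGCGG in 32.7% of 32851 promoter windows of this length. They are letters in a window and do not show a site in use.

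Kir6.1 and SUR2 are themselves hallmarks of pericytes in the heart, so markers of the vessel wall were read beside them. Of 11 pericyte markers tested, 7 were called lower and none higher, where 1.84% of all tested genes were called lower. The list's median log2 fold change was -0.38, next to -0.45 for Kcnj8 and -0.33 for Abcc9. The list was written with earlier results of these data known. Vtn, Ndufa4l2, Notch3, Steap4, Pdgfrb and Cox4i2, all called lower, are also on term lists that the study drew from these same libraries. The count is therefore not separate support for the values of Kcnj8 and Abcc9. Summed over the list, the level was 638 to 692 CPM in WT and 468 to 568 CPM in mutants, without overlap, and no marker was at 0. Vtn fell most, from 34.8, 38.6 and 38.5 CPM in WT to 22.6, 23.9 and 25.3 CPM in mutants, with a log2 fold change of -0.64 and an adjusted p of 0.00351 in edgeR. Rgs5 (-0.49), Ndufa4l2 (-0.49), Notch3 (-0.43), Steap4 (-0.38) and Pdgfrb (-0.32), the receptor that pericytes need for recruitment to vessels, were also called lower. Vtn kept its call without any 1 library, but these 5 lost theirs without mutant replicate 1, and the 4 other than Rgs5 also without WT replicate 4, mutant replicate 3 and either WT replicate 1 or 3, with a highest adjusted p of 0.106 (Rgs5) to 0.249 (Notch3) in edgeR over the fits that left out 1 library. Cspg4, Higd1b, Mcam and Anpep were not called. Fewer pericytes and less RNA per pericyte cannot be told apart in bulk tissue, and the part of either in the values of Kcnj8 and Abcc9 was not tested.

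Markers of the other cells of the vessel wall were read in the same way. Of the 7 smooth muscle markers tested, Acta2 alone was called and it was higher, at 67.2, 80.9 and 69.8 CPM in WT and 175, 207 and 169 CPM in mutants, and the median of the list was -0.04. Of 10 endothelial markers, Egfl7 and Tie1 were called lower, the estimate was negative for all 10, and the median was -0.16, smaller in size than the log2 fold change of Kcnj8 or Abcc9. Both endothelial calls were lost without WT replicate 1, 3 or 4 or mutant replicate 1 or 3, with highest adjusted p of 0.265 and 0.267 in edgeR. Whether these lists differed from the pericyte list was not tested.

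**Figure D4:**
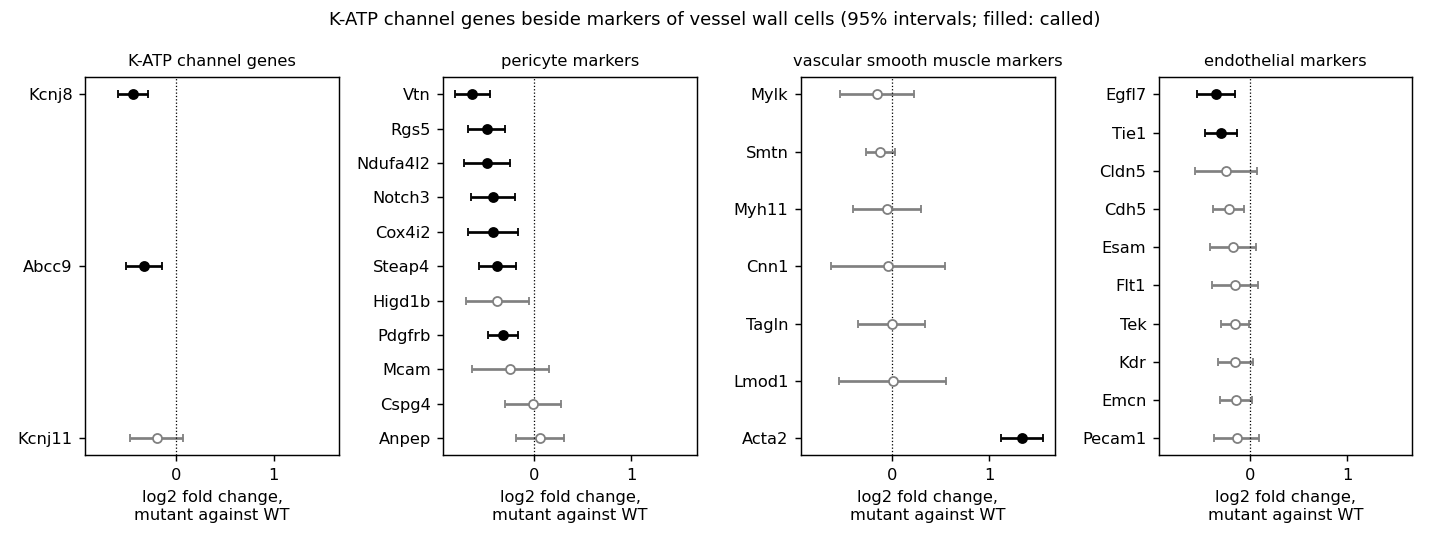
Log2 fold change, mutant against WT, with 95% intervals from edgeR (x axis) for Kcnj8, Abcc9 and Kcnj11 and for the tested markers of pericytes, vascular smooth muscle and endothelium, with called genes filled. Kcnj8 and Abcc9 lie at -0.45 and -0.33, among the 7 called pericyte markers, and Acta2 stands alone at 1.34.

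Cardiomyocytes, which carry most of Kcnj11, Kcnj2 and SUR2A, were represented by 8 markers, which summed to 101304 to 104473 CPM in WT and 98544 to 110339 CPM in mutants. The heart label is thus borne out by its defining markers, and the summed level overlapped between genotypes. Within that list Actc1 was higher (0.28) and Myl3 lower (-0.27), calls that were lost without WT replicate 1 or 4 or mutant replicate 1, and without WT replicate 3 for Actc1 and mutant replicate 2 for Myl3, with highest adjusted p of 0.188 and 0.242 in edgeR. Of 9 fibroblast markers Col1a1 was called, higher by 0.46 on the log2 scale, and of 7 macrophage markers none was called.

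Genes that act around the channels were read against the 4.64% of all tested genes that were called. K-ATP channels read the energy state of the cell. Of 15 genes linked to that state, 2 were called, both lower. They encode adenylate kinases, creatine kinases, lactate dehydrogenases and subunits of the AMP-activated kinase. Ak4, a mitochondrial adenylate kinase, fell from 30.7, 27.9 and 29.0 CPM in WT to 21.3, 19.4 and 22.0 CPM in mutants, a log2 fold change of -0.49 with an adjusted p of 0.0182 in edgeR. Ckm, the muscle creatine kinase, fell by 0.33 on the log2 scale, a call that was lost without WT replicate 1 or 4 or mutant replicate 1, with a highest adjusted p of 0.166 in edgeR. No gene was called among 14 that make or split the lipid PIP2, which all Kir channels need to open (Pip5k1c and Pip5k1b had the smallest p), or among 20 anchoring and trafficking partners (Cav1 and Ank3). The same held for the 4 two-pore leak channel genes tested (Kcnk3 and Kcnk2). The study's term lists from these same libraries also hold Rgs2, Rgs6, Gnao1, Ak4, Ckm, Acta2, Egfl7, Tie1, Actc1, Myl3 and Col1a1. The direction of these genes is thus not a second, separate observation.

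The profiles most like that of Kcnj8 over the 6 libraries, by the root mean square difference of centred log2(CPM + 0.5), were those of the mitochondrial ribosomal gene Mrpl14 (0.0284), 2310039L15Rik (0.0398), Rbfox1 (0.0533), 2310010J17Rik (0.0556) and Kif26b (0.0578), and Abcc9 came 204th at 0.120. Those most like Abcc9 were peroxidasin Pxdn (0.0204), Gm14492 (0.0328), Prdm16 (0.0349), C030006K11Rik (0.0484) and the ATP synthase gene Atp5g1 (0.0497). The member nearest to Abcc9 was Kcnj12 (0.0891, 110th), ahead of Kcnj8 (479th).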

How the data were processed

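RNA was sequenced from ventricular myocardium of 3 WT and 3 Dst-b mutant mice, grouped by the labels. Reads were aligned by OLego to GRCm38/mm10 and genes quantified by Quantas, and the authors deposited estimated counts (tags) and RPKM for each gene, the latter scaled for exon length and library total. The sources name different library kits, and the meaning of a tag (single read or pair) and strand use in counting are not given in the sources used here.

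Estimated counts were rounded (8.45% to 13.8% of genes per library were not whole). Genes reaching 1 CPM in 3 or more libraries (12955) were tested in edgeR 4.0.16 (R 4.3.3) with TMM scaling, the quasi-likelihood test and Benjamini-Hochberg adjustment, two-sided, with genotype as the only term. The method was tested on simulated data. RPKM served for levels and for ratios within a library, the latter with two-sided exact permutation tests. The members and 15 gene lists (171 genes, 153 with values) were chosen with earlier results of these data known. The values of 1 of these lists are not reported here. Named were all members, in each list up to 6 called genes by p or, with none called, the 2 smallest p, the listed neighbours of members, and the 5 profiles nearest to each called member. With 3 mice per genotype, p-values rest on the spread between these mice, which edgeR moderates for each gene with that of all genes tested. Promoter sequences came from RefSeq (GRCm38.p6), which held 6 of the 7 members. Alternatives were median-of-ratios scaling, no filter on low counts, a mean CPM minimum of 5, edgeR's exact test, DESeq2 1.42.0, limma 3.58.1 with a trend on log2(CPM + 0.5), an adjusted p under 0.05, a replicate block, and leaving out each library.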

Additional observations from a re-analysis of the deposited data

How the results depend on the processing

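Kcnj8 was called under all 14 alternatives, with log2 fold changes of -0.48 to -0.41, and Kcnj12 and Kcnj11 under none. At an adjusted p under 0.05, 1 member (Kcnj8), 304 of all genes and 10 list genes were called, where Abcc9 (-0.33) did not pass, and DESeq2 called 1028 of all genes. Kcnj2 passed in edgeR's exact test (log2 fold change 0.32, adjusted p 0.0875) and in DESeq2 (0.31, adjusted p 0.0562). Leaving out each library gave 1 to 2 called members, 163 (without mutant replicate 1) to 519 (without mutant replicate 2) of all genes and 7 to 23 list genes, against 20 list genes with all libraries. Over these fits the log2 fold change ran from 0.26 to 0.41 for Kcnj2, -0.16 to 0.073 for Kcnj3 and -0.16 to 0.080 for Kcnj5. It ran from -0.34 to -0.07 for Kcnj11 and -0.40 to -0.25 for Abcc9. The mutant-minus-WT difference of the mean log2 ratio ran from -0.018 to 0.25 for Kcnj11 to Abcc9 and from -0.013 to 0.11 for Kcnj3 to Kcnj5. This difference ran from -0.40 to -0.14 for Kcnj8 to Kcnj11 and from -0.18 to -0.03 for Kcnj8 to Abcc9. The cause of these shifts was not tested.

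The replicate numbers 1 and 3 occur in both genotypes, and the labels do not say whether equal numbers mark a pair. Deviations from the group means correlated at 0.00724 for number 1 and -0.0492 for number 3. Between libraries of unequal number the correlations ran from -0.0910 to 0.114. With 3 mice per genotype these values cannot exclude a pairing. With a replicate block, which leaves 1 residual degree of freedom, 966 of all genes and 41 list genes were called, Kcnj3 (0.14) and Kcnj5 (0.13) turned positive without a call, Kcnj11 was at -0.08, and the calls of Kcnj8 and Abcc9 held.

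Precision is limited by 3 mice per genotype and by depth, with a biological coefficient of variation of 12.3% over all genes and at least 617 tags per library for each member. Which of these limits weighs more for each member was not tested.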

Other observations

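Kcnj14, which encodes the Kir2 channel Kir2.4, was at 1.53, 1.08 and 2.03 CPM in WT replicates 1, 3 and 4 and at 4.91, 1.14 and 4.37 CPM in mutant replicates 1, 2 and 3. It was high in 2 of the 3 mutant hearts and not called, with a log2 fold change of 1.15 and an adjusted p of 0.256 in edgeR. Without mutant replicate 2 it was called (log2 fold change 1.57, adjusted p 0.0268 in edgeR), and without mutant replicate 1 the log2 fold change was 0.81. Chrm2, the muscarinic receptor that drives the acetylcholine-activated current, did not overlap between genotypes and had a log2 fold change of 0.28 with an adjusted p of 0.139 in edgeR, and it is named here after its values were seen. Nppa, the atrial natriuretic peptide that ventricles under load also express, was at 119, 671 and 144 CPM in WT and at 877, 926 and 639 CPM in mutants. Its log2 fold change was 1.39 and was not called with all libraries, and it was 2.63 and called without WT replicate 3 (adjusted p 5.86e-04 in edgeR). The study reported Nppa raised in mutant hearts by in situ hybridization of the left ventricle and by qPCR. It also placed Nppa on its term lists of raised genes from these same libraries. WT replicate 3 was also the highest library for the atrial markers Myl4, Myl7, Sln, Mybphl and Bmp10, so its Nppa value stands beside high values of other atrial genes, and the part of atrial tissue in it was not tested. Its values of Kcnj8 (49.9 CPM) and Kcnj2 (37.5 CPM) were not within the range of the mutants. Cntn2, a marker of the conduction system, was at 3.33, 5.79 and 5.23 CPM in WT and at 7.66, 8.68 and 7.01 CPM in mutants, without overlap and without a call (adjusted p 0.116 in edgeR), and none of the 8 conduction markers tested was called.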
